A study of Mus musculus with 13 samples.

Results

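A set of 34 genes of the oligodendrocyte lineage was followed in the hippocampus of wild type and Tmem184b-mutant mice, among 25025 genes in the deposited tables. The members were chosen by symbol, as genes that mark precursor, differentiating or myelinating oligodendrocytes, and each has a row in both tables. Earlier results of these data were known when they were chosen. They were divided by role into 2 precursor genes, 5 lineage transcription factors, 2 genes of differentiating cells, 13 genes of myelin and the oligodendrocyte membrane, 3 enzymes of lipid or metabolite pathways and 9 other genes of mature oligodendrocytes. All 34 passed the filter on low values, a mean normalized count of at least 10, at both ages. The question was which of these stages accounts for lower myelin genes in older mutants, and whether the answer holds after a correction for the base composition and length of transcripts.

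RNA was sequenced from hippocampi of 4 wild type (C57BL/6) and 3 TMEM184B mutant (GT/GT) mice aged 5 months, and of 3 wild types and 3 mutants aged 15 months, with 1 library per mouse. The mutants carried a gene trap in both copies of Tmem184b, on the C57BL/6 background, a constitutive disruption that is not limited to oligodendrocytes. Wild types were bred in house and were littermates of mutants only when possible. Sex is not in the labels. By the study's methods all 15-month wild types that were kept were female, while the 15-month mutants included males, so genotype and sex cannot be fully told apart at that age.

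The deposited values are normalized counts, that is estimates of reads per gene, scaled to even out the libraries of an age. Their sum per library ran from 28086279 to 32383546, and at each age it was higher in every mutant than in every wild type. It is not sequencing depth, and the depth behind each value is unknown. The targeted gene followed the labels in all 13 libraries. Tmem184b had between 2329 and 2475 normalized counts in 5-month wild types and between 31.3 and 44.95 in mutants, and between 2346 and 2413 against between 29.4 and 57.8 at 15 months. The 15-month mutant replicate 3 stood apart from the other mice of its age. The summed normalized count of 7 choroid plexus genes was 28758 there and at most 2136 in the other 5 libraries, and the sum of 9 endothelial and pericyte genes was 16119 against at most 10327.

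Oligodendrocytes arise from precursor cells that carry the receptor Pdgfra and the proteoglycan Cspg4 (NG2) and that remain in the adult brain. The transcription factors Olig1, Olig2 and Sox10 are present through the lineage, and Myrf is needed for the switch to myelin gene expression. Differentiating cells pass through a stage marked by Bcas1 and Enpp6, and mature cells wrap axons in membrane rich in galactolipids and in a small set of abundant proteins. In the hippocampus myelin lies in the fibre tracts and along long-range and interneuron axons.

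Sequences are shown for Mal, Mobp and Cldn11, the genes that passed the test at 15 months on the deposited values and again on those corrected for composition, so that the region from which they start can be read beside their values. Promoter windows of 300 bases, from 250 before to 50 after the start of the RefSeq transcript on GRCm38.p6, were on hand for 25 of the 34 members. Mal starts on the minus strand and its window is chr2:127656646-127656945, Mobp on the plus strand at chr9:120149492-120149791, and Cldn11 on the plus strand at chr3:31149670-31149969. Capitals mark matches, on either strand, to ACAAAG or ACAATG, a core bound by SOX proteins.
Mal: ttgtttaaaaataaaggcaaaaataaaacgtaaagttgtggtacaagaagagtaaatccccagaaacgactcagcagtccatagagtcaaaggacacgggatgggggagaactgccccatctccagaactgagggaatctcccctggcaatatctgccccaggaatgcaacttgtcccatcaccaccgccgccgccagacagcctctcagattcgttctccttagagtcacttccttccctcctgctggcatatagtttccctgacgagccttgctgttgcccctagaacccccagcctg
Mobp: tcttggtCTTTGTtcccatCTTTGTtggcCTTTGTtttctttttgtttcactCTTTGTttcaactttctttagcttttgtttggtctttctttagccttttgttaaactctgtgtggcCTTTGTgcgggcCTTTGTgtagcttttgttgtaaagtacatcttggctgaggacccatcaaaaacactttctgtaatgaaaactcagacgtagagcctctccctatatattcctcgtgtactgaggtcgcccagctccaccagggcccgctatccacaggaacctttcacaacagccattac
Cldn11: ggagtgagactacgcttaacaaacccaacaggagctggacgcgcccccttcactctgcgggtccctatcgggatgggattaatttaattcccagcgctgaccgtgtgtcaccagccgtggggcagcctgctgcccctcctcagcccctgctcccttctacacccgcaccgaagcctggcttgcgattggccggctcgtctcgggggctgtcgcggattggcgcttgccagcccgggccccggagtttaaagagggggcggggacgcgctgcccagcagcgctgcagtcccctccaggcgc

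The Mobp window held 6 of these matches, all on the minus strand, and was the only window of 32851 with 6 or more, a count made after the window had been read, whereas those of Mal and Cldn11 held none. None of the 3 held an E-box (CANNTG), the letters read by Olig proteins, or the letters CTGGCAC or CTGGTAC of the MYRF core. Over the members, which have 32 windows, the SOX core was in 15 windows (28.6% of all windows), the E-box in 21 (72.3% of all) and the MYRF core in 7 (7.1% of all). The 3 windows also differ in base composition, with a GC content of 51.0% for Mal, 43.3% for Mobp and 66.3% for Cldn11. These are matches of letters in short windows and not measured binding.

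At 15 months, genes of myelin and of mature oligodendrocytes were lower in mutants. Of the 34 members, 12 passed the test as lower and 0 as higher (limma on log2(normalized count + 1), adjusted p under 0.05 over the 15541 genes tested), where 4.03% of all genes tested were lower and 1.99% higher. The 12 genes were 7 of the 13 myelin and membrane genes, 1 of the 3 enzymes, 3 of the 9 other mature genes and 1 of the 2 precursor genes, and no lineage transcription factor and neither gene of differentiating cells was among them. The change was below 0 for 29 of 34 members and for 47.9% of all genes. In 22 members every mutant lay below every wild type, a separation found in 17.7% of all genes, and 23 had an unadjusted p under 0.05 (28.8% of all genes). Because the members were chosen with earlier results of these data known, these shares describe the list and do not test it. In bulk tissue, fewer oligodendrocytes and less RNA per cell cannot be told apart.

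**Figure D1:**
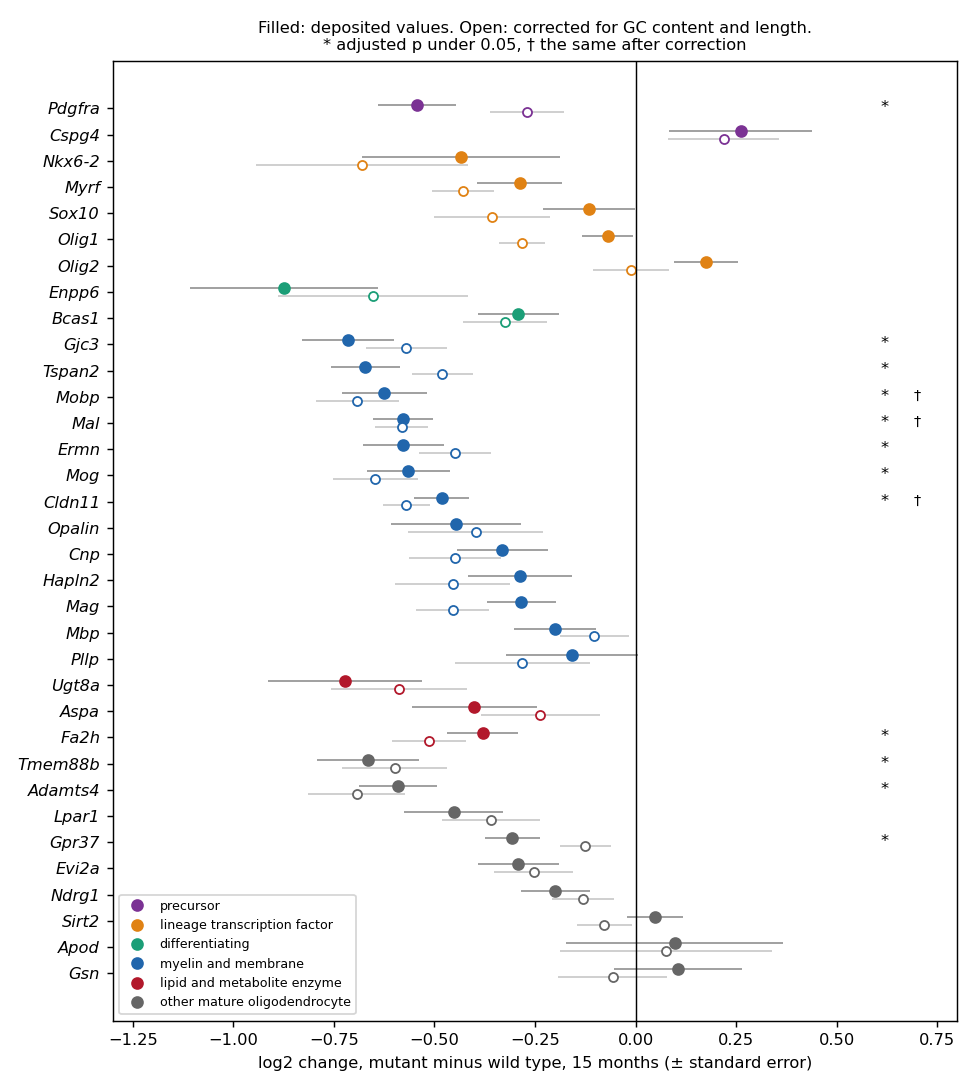
Log2 change (mutant minus wild type, x axis) of each of the 34 members at 15 months with its standard error, from 3 mice of each genotype, grouped by role and ordered by size within a role. Filled points are the deposited values and open points the values corrected for GC content and transcript length; the 12 asterisks mark adjusted p under 0.05, and the 3 daggers, at Mobp, Mal and Cldn11, the same after correction.

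Among the structural genes, Mal, a proteolipid of compact myelin (chr2:127633226-127656695, GRCm38), had 4769, 4302 and 4660 normalized counts in wild types, against 2914, 3005 and 3284 in the mutants. The genotypes did not overlap, and the log2 change was -0.58 (standard error 0.07, limma adjusted p = 0.0246). Cldn11, the tight-junction claudin of myelin (chr3:31149920-31164324), had 3953, 3842 and 4140 in wild types, against 2821, 2739 and 2984 in the mutants. Both groups were tight, the mutants lay well below the wild types, and the log2 change was -0.48 (standard error 0.07, limma adjusted p = 0.0246). Mobp, an abundant basic protein of compact myelin (chr9:120149707-120181484), had 30046, 23873 and 29662 in wild types, against 19426, 18468 and 16185 in the mutants. Wild type replicate 2 was the lowest wild type and still lay above every mutant, and the log2 change was -0.62 (standard error 0.11, limma adjusted p = 0.0299).

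Mog, a protein of the outer myelin surface, had 1837, 1751 and 1888 normalized counts in wild types, against 1343, 1335 and 1045 in the mutants, a log2 change of -0.57 (standard error 0.10, limma adjusted p = 0.0316). Mutant replicate 3 was the lowest, and without overlap the other 2 mutants also lay below the wild types. Tspan2, a tetraspanin of oligodendrocytes, had 1720, 1757 and 1852 against 1121, 1216 and 1014, with a log2 change of -0.67 (limma adjusted p = 0.0246). Gjc3, the connexin of oligodendrocytes also called connexin 29, had 1027, 1092 and 1054 against 629.9, 759 and 557, with a log2 change of -0.72 (limma adjusted p = 0.0285). Of the 13 structural genes it had the largest change on the deposited values. Ermn, a cytoskeletal protein of myelin, had 957, 1011 and 1189 against 677, 732 and 697, with a log2 change of -0.58 (limma adjusted p = 0.0302).

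The other 6 structural genes did not pass the test, although each had a change below 0. Mbp, the major basic protein of compact myelin, had 106042, 94131 and 107776 normalized counts in wild types, against 96920.3, 92423 and 79208 in the mutants. The groups overlapped, since mutant replicate 1 lay above wild type replicate 2, and the log2 change was -0.20 (standard error 0.10, limma adjusted p = 0.223). Cnp, an enzyme of non-compact myelin, went from 12128 ± 875 to 9714 ± 1611 (SD, n = 3 each) and Mag, an adhesion protein facing the axon, from 6213 ± 400.3 to 5113 ± 503 (SD, n = 3 each). In both genes every mutant lay below every wild type, and the limma adjusted p was 0.0924 for Cnp and 0.0706 for Mag. Opalin (limma adjusted p = 0.109), Hapln2 (0.178) and Pllp (0.559) had log2 changes of -0.45, -0.29 and -0.16. Per kilobase of transcript Mbp was by far the most abundant member, with 21399 normalized counts in 15-month wild types, before Mobp with 8478 and Cnp with 4176.

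**Figure D2:**
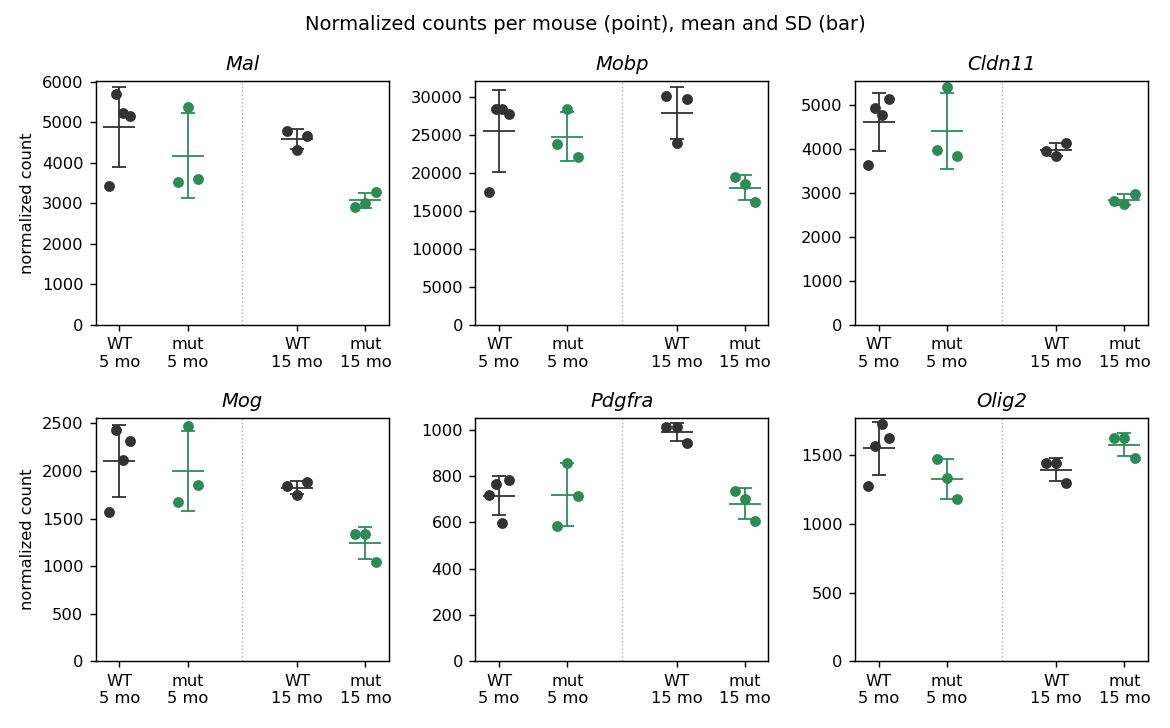
Normalized counts (y axis, from 0) of Mal, Mobp, Cldn11, Mog, Pdgfra and Olig2 in each mouse (points), with the mean and SD of each group (bars), for wild types (WT) and mutants (mut) at 5 and 15 months. At 15 months the 3 mutants lie below the 3 wild types in every panel except Olig2, where they lie above, and at 5 months the genotypes overlap in every panel; levels are not compared between ages because each age was normalized in its own table.

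Of the enzymes, Fa2h, which hydroxylates the fatty acids of myelin galactolipids, had 1011, 1108 and 1167 normalized counts in wild types, against 863, 868 and 791 in the mutants. The mutants lay below the wild types, with a log2 change of -0.38 (standard error 0.09, limma adjusted p = 0.0437). Ugt8a, which makes galactosylceramide, had 482, 679 and 688 against 344, 481 and 302. Its log2 change of -0.72 was larger, but wild type replicate 1 was nearly as low as mutant replicate 2, and the gene did not pass (standard error 0.19, limma adjusted p = 0.054). Aspa, which splits N-acetylaspartate to acetate, had a mean of 267 ± 12.4 in wild types and 204 ± 34.9 in mutants (SD, n = 3 each) and a limma adjusted p of 0.127.

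Of the other genes of mature oligodendrocytes, Tmem88b, Adamts4 and Gpr37 were lower. Tmem88b had 2122, 2207 and 2250 normalized counts in wild types, against 1591, 1513 and 1097 in the mutants, a log2 change of -0.67 (limma adjusted p = 0.032). Adamts4, a secreted protease of the extracellular matrix, had 807, 814 and 864 against 593, 562 and 499, a log2 change of -0.59 (limma adjusted p = 0.0285). Gpr37, a receptor that restrains oligodendrocyte differentiation, had 1995, 2007 and 2120.5 against 1671, 1679 and 1599, a log2 change of -0.31 (limma adjusted p = 0.0415). In each of the 3 genes the groups were apart.

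The remaining 6 genes of that role did not pass. Lpar1, a receptor for lysophosphatidic acid (log2 change -0.45), Evi2a (-0.29) and Ndrg1 (-0.20) were below 0, with every mutant below every wild type. Evi2a shares exon sequence with the longer gene Evi2 on the same strand, so its values are uncertain. Gsn, the actin-severing protein gelsolin, and Sirt2, a deacetylase of the myelin sheath, had changes of 0.11 and 0.05 on the deposited values and of -0.06 and -0.08 after the correction described below. Apod, an apolipoprotein made by oligodendrocytes and also by cells of vessels and meninges, had 4152, 3772 and 4609 in wild types, against 3217, 3552 and 7735 in the mutants. Mutants 1 and 2 lay below all wild types and mutant 3, the library with high choroid plexus and vessel genes, far above them, and without that mouse the log2 change of Apod was -0.30. The part of such cells in its value was not tested.

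The early lineage genes did not move as a body. Pdgfra had 1012, 1014 and 944 normalized counts in wild types, against 738, 699 and 605 in the mutants, all below the wild types, with a log2 change of -0.54 (standard error 0.10, limma adjusted p = 0.0303). Cspg4, the other precursor gene, had 872, 873 and 931 against 967, 844 and 1499, with a log2 change of 0.26 (limma adjusted p = 0.358). Its high value was again mutant replicate 3, and Cspg4 is also expressed by pericytes. Whether vessel cells in that library account for its value was not tested. Without that mouse the log2 change of Cspg4 was 0.02.

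None of the 5 lineage transcription factors passed the test, and their changes ran from -0.43 to 0.18. Olig1 had 5499, 5405 and 5601 normalized counts in wild types against 5434, 4992 and 5316 in mutants, a log2 change of -0.07 (limma adjusted p = 0.508). Olig2 had 1438, 1442 and 1296 against 1620.3, 1619 and 1475, and was the member in which every mutant lay above every wild type (16.4% of all genes had this pattern), with a log2 change of 0.18 (limma adjusted p = 0.182). Sox10 had 2710.3, 2424 and 2478 against 2609, 2551 and 1922, with overlap and a change of -0.12 (limma adjusted p = 0.536). Sox10 lies 195 kb from Tmem184b on chromosome 15. Myrf had 2136, 1779.9 and 2246 against 1626, 1548 and 1862, with a change of -0.29 (limma adjusted p = 0.112). Nkx6-2, a homeobox repressor of the lineage, had 714, 595 and 565 against 588, 579 and 286, and its change of -0.43 leaned on mutant replicate 3 (limma adjusted p = 0.272).

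Genes of differentiating cells had lower values that did not pass. Enpp6, a choline phosphodiesterase of newly forming oligodendrocytes, had 87.4, 90.3 and 114 normalized counts in wild types, against 65.1, 47.9 and 45.6 in the mutants. The genotypes were apart, and the log2 change of -0.87 was the largest of the 34 members, with a standard error of 0.23 (limma adjusted p = 0.0545). Per kilobase its level of 19.6 normalized counts in 15-month wild types was the lowest of the members. Bcas1, a marker of cells that are beginning to myelinate, had 5746, 5704 and 6883 against 5285, 5310.5 and 4383, a change of -0.29 (limma adjusted p = 0.097).

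By role, the median log2 change at 15 months was -0.48 for myelin and membrane genes, -0.40 for enzymes, -0.29 for other mature genes, -0.58 for the 2 genes of differentiating cells, -0.14 for precursor genes and -0.12 for transcription factors, beside 0.02 for all genes tested. The precursor and transcription factor medians depended on single mice, with that of precursor genes at -0.066 without mutant 2 and -0.22 without mutant 3, and that of transcription factors at -0.069 without wild type 1, -0.079 without mutant 3, -0.18 without mutant 2 and -0.19 without mutant 1. The mean deviation of the 13 myelin and membrane genes from the wild type mean was -0.37, -0.38 and -0.61 (log2) in mutants 1 to 3, against -0.03, -0.02 and 0.05 in wild types. For transcription factors it was -0.03, -0.08 and -0.32 in mutants against 0.08, -0.06 and -0.02 in wild types. The 3 mutants were thus clear of the wild types at myelin genes, while at transcription factors mutant 1 lay within the wild type range. They were also clear at genes of differentiating cells, where the highest mutant was at -0.38 and the lowest wild type at -0.11. The same held for enzymes (-0.28 and -0.15) and for other mature genes (-0.17 and -0.06). At precursor genes mutants 1 and 2 lay below the wild types and mutant 3 above them.

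Transcript composition moved with the change at 15 months. Across all 15313 genes with an annotated transcript, the change correlated with GC content with Spearman's rho of 0.49 and with length with rho of -0.42, so that GC-rich and short transcripts tended to be higher in mutants. Genes share libraries, and these values are a description across genes. Among the members, whose GC content ran from 38.0% (Ugt8a) to 64.3% (Nkx6-2), rho with GC content was 0.63 (n = 34). The roles differ in composition, with a median GC content of 61.1% for transcription factors, 50.9% for myelin and membrane genes and 38.5% for the enzymes. Within each range of GC content the median of the members lay below that of all genes. Between 45% and 50% the median change was -0.45 for 7 members and -0.09 for 3945 genes, between 50% and 55% it was -0.29 for 9 members and 0.06 for 3994 genes, and between 55% and 60% it was -0.29 for 8 members and 0.19 for 2896 genes.

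**Figure D3:**
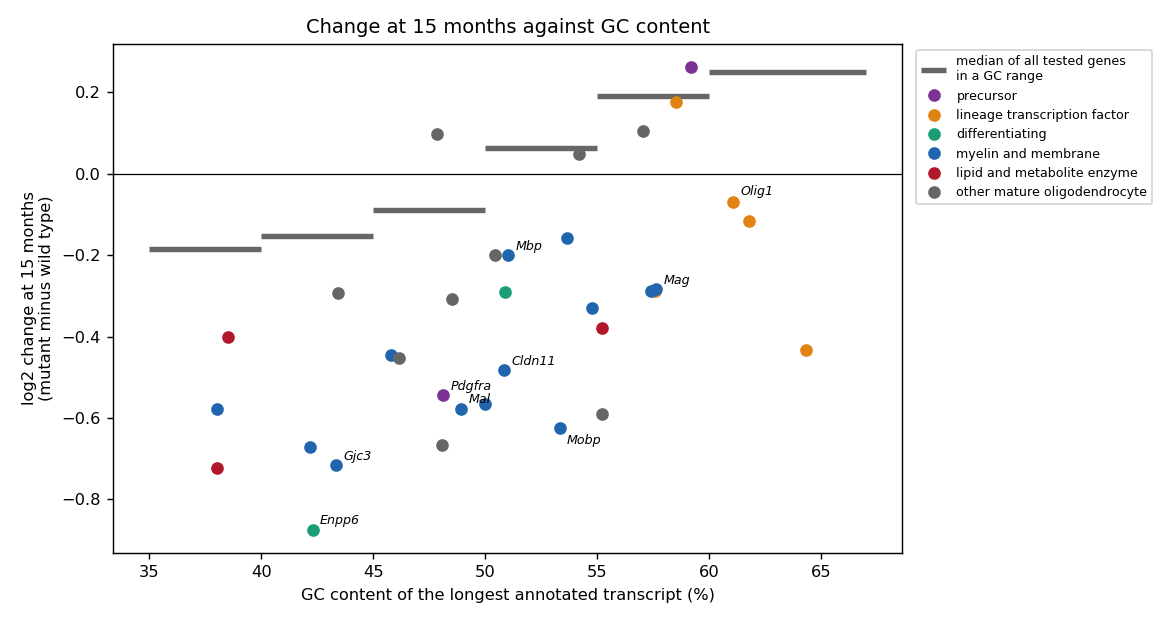
Log2 change at 15 months (mutant minus wild type, y axis) of the 34 members against the GC content of their longest annotated transcript (x axis, %), colored by role, with grey lines at the median change of all tested genes in 6 ranges of GC content; the outermost ranges are drawn only to 35% and 67%. The grey medians climb from -0.19 under 40% to 0.25 above 60%, and most members lie below the line of their range.

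Each library was then corrected for GC content and length by a loess curve. After that, the correlation of the change with GC content was 0.03 and with length -0.07 across all genes, and far fewer genes passed the test. Of all genes tested, 0.0979% were lower and 0.0718% higher, and of the members 3 were lower and 0 higher. The 3 were Mal, with a corrected log2 change of -0.58 (limma adjusted p = 0.0316), Mobp with -0.69 (limma adjusted p = 0.0471) and Cldn11 with -0.57 (limma adjusted p = 0.031). After correction 32 of 34 members had a change below 0 (46.4% of all genes), and in 26 every mutant lay below every wild type (8.27% of all genes), while in 0 every mutant lay above (11.5%).

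By role, the corrected median of the myelin and membrane genes was -0.45 and that of the enzymes -0.51, close to or beyond the values before correction, while the median of the other mature genes went to -0.13. The mean of that role over the mutants was -0.25 both before and after correction, and of its 3 called genes Adamts4 went from -0.59 to -0.69 and Tmem88b from -0.67 to -0.60. Mag went from -0.28 to -0.45 (corrected limma adjusted p = 0.0862) and Cnp from -0.33 to -0.45 (0.145), and Gpr37 went from -0.31 to -0.13 (0.438). Pdgfra went from -0.54 to -0.27 (corrected limma adjusted p = 0.246), and the precursor median was -0.03. Transcription factors moved the other way, to a median of -0.36 from -0.12, with Myrf at -0.43 (corrected limma adjusted p = 0.0676), Olig1 at -0.28 (0.09), Sox10 at -0.36 (0.323) and Nkx6-2 at -0.68 (0.305). Olig2 was at -0.01. In 4 of the 5 transcription factors every mutant then lay below every wild type, but none passed the test. Enpp6 was at -0.65 and Bcas1 at -0.32 after correction, and neither passed.

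**Figure D4:**
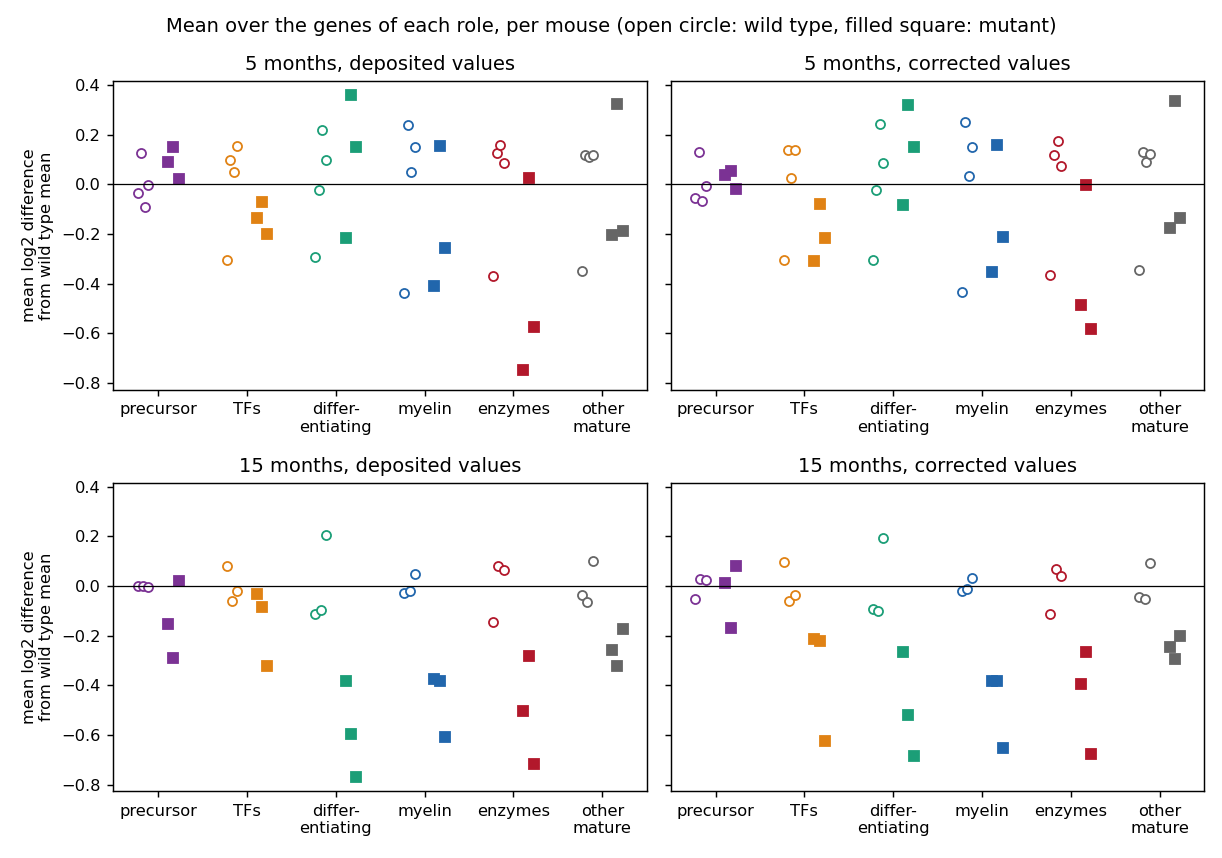
Mean over the genes of each role of the log2 difference of a mouse from the wild type mean of its age (y axis), per mouse, for wild types (open circles) and mutants (filled squares), at 5 and 15 months, with deposited values on the left and values corrected for GC content and length on the right. At 15 months the mutants lie below the wild types at the 13 myelin and membrane genes in both panels, and at the 5 transcription factors only after correction. They also lie below in both panels at differentiating genes, enzymes and other mature genes, but not at precursor genes. At 5 months wild types and mutants overlap in every role in both panels.

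The calls at 15 months were lost when any of 4 mice was left out. Without wild type replicate 1, 2 or 3 or mutant replicate 1, 0 of the 34 members passed, and at most 11 of all genes did so. Without mutant replicate 2 there were 13 lower members (6.94% of all genes were lower) and without mutant replicate 3 there were 14 (5.23%), which included the 12 in each case. Leaving out each mouse in turn left the change of Mal between -0.63 and -0.54, that of Mobp between -0.73 and -0.55 and that of Cldn11 between -0.52 and -0.45. In each of these 6 fits 29 of 34 members were below 0 (47.9% of all genes in the fit of all mice). The fits share most of their mice. With the correction, leaving out a mouse gave between 0 and 11 lower members, 0 without any wild type or mutant 1, 8 without mutant 2 (0.659% of all genes) and 11 without mutant 3 (0.392%).

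At 5 months the members were scattered and none passed the test. Of 34 members, 0 were lower and 0 higher with limma (1.15% and 1.12% of all genes tested), and 4 had an unadjusted p under 0.05 (20.5% of all genes). These were Gjc3 (log2 change -0.35), Hapln2 (-0.37), Ugt8a (-0.46) and Fa2h (-0.33), with limma adjusted p from 0.18 to 0.235. No member had every mutant below or every mutant above every wild type, patterns found in 9.23% and 9.3% of all genes. The change was below 0 for 26 of 34 members and for 50% of all genes, with a median of -0.08.

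The spread between mice was wide at that age and shared by the members. Wild type replicate 1 was the lowest wild type at 31 of 34 members, among them all 25 genes of the 3 mature roles, and mutant replicate 2 was the highest mutant at 30. Mal had 3433, 5689.6, 5234 and 5140.3 normalized counts in wild types, against 3520.1, 5375 and 3603 in the mutants. The low wild type and the high mutant lie across the other genotype's range. Mobp had 17447, 28368, 28439 and 27715 against 23842, 28331 and 22067, and Mbp had 77716, 120700, 119749 and 116271 against 95158, 120750 and 89715. For both genes the wild type replicate 1 was below every mutant. Aspa had 225, 333, 330 and 314 against 151, 322 and 186, with mutants 1 and 3 below all wild types. Other markers also differed at that age. The sum of the 7 choroid plexus genes ranged from 3243 to 165753 normalized counts across the wild types but only from 743 to 3039 across the mutants. That of the 8 astrocyte genes ranged from 104480 to 112606 and, in the mutants, from 120871 to 133498. The neuronal sum ranged from 168827 to 178562 and, in the mutants, from 178620 to 203160, and the endothelial and pericyte sum from 10558 to 12749.8 and from 13241 to 15865. These 3 sums were higher in every mutant than in every wild type, the neuronal sum by a narrow gap. So was the sum over all genes (29111590 to 32085550 in mutants against 28086279 to 28696023 in wild types), and its part in these 3 sums was not tested. Slc17a7 alone had 72705 to 81245 in wild types and 84395 to 107326 in mutants, while 5 of the 8 neuronal genes had a change below 0 (median -0.02). Of the 8 astrocyte genes 6 had a change above 0, and of the 9 endothelial and pericyte genes 8. Gene by gene, 3 choroid plexus genes were lower at 5 months with limma, Ttr (log2 change -5.75), Slc4a5 (-4.70) and Clic6 (-3.23). Gfap of the astrocyte list (0.54) and Vtn of the endothelial and pericyte list (0.62) were higher, while no neuronal, microglial, fibroblast or ependymal gene passed. Of all genes tested, 1.15% were lower and 1.12% higher. The part of these cells in the members' values was not tested.

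The median change of the 25 mature genes was -0.11, and it rested on single mice. It was -0.24 without wild type replicate 1 and -0.26 without mutant replicate 2, but -0.035 without wild type replicate 2, -0.021 without mutant replicate 1 and -0.042 without mutant replicate 3. Without mutant replicate 2, Ugt8a and Aspa passed the test as lower (1.91% of all genes). The lowest median by role was that of the enzymes, -0.46, beside -0.13 for myelin and membrane genes. Precursor genes, transcription factors and genes of differentiating cells had medians of 0.09, -0.15 and 0.10. The correction for GC content and length left 0 members called at 5 months (2.29% of all genes were lower and 3.28% higher) with 28 of 34 below 0 (45.9% of all genes), and again none had every mutant below (8.46%) or above (12.1%) every wild type.

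**Figure D5:**
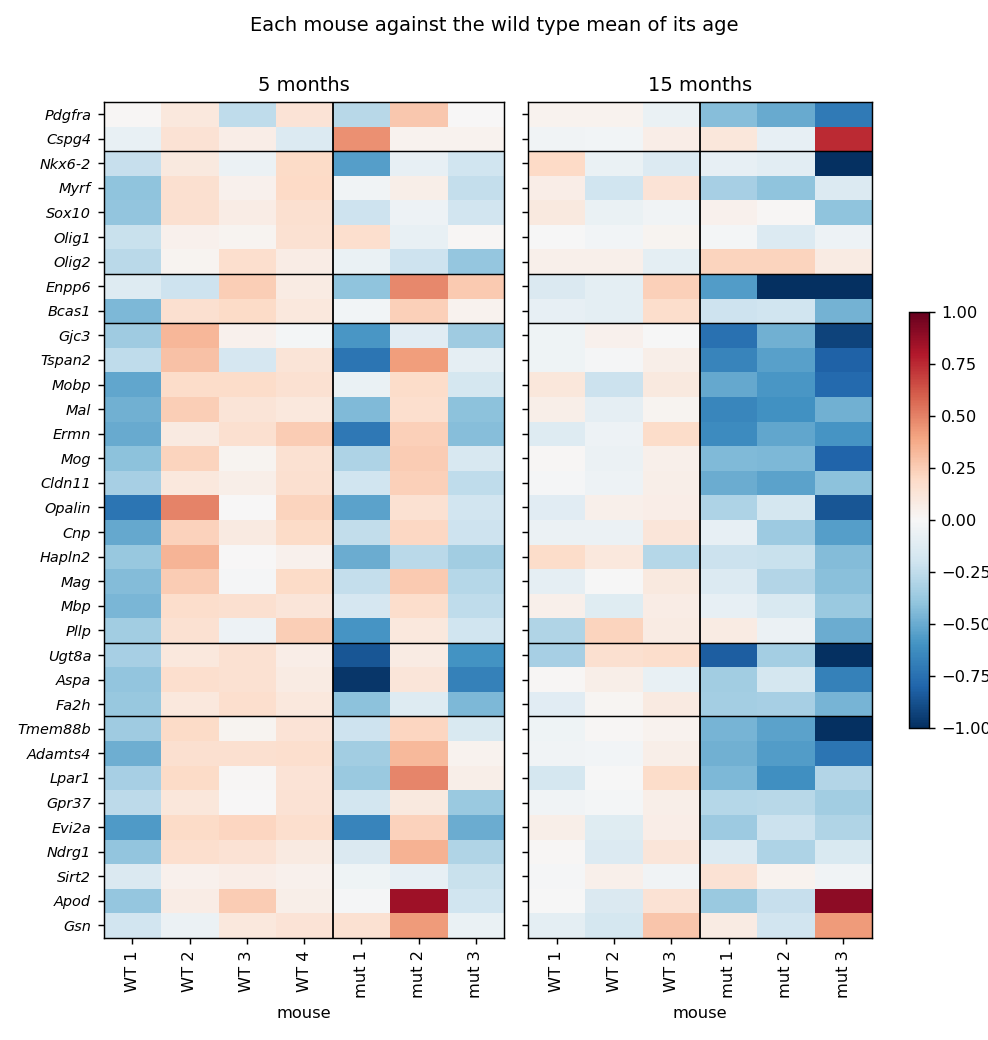
Log2 difference of each mouse (columns) from the wild type mean of its age for the 34 members (rows, by role), on deposited values, with blue for lower and red for higher and the color scale ending at -1 and 1. Wild type replicate 1 is blue at nearly all members at 5 months, and at 15 months the 3 mutant columns are blue over the myelin and membrane genes while Apod and Cspg4 are red in mutant 3.

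The difference of the genotype effect between the ages was tested over all 13 libraries. No member passed, with 0 of 34 called in either direction. Of all genes, 1.13% had a lower genotype effect at 15 than at 5 months and 0.613% a higher one. At an unadjusted p under 0.05 there were 8 members (21.1% of all genes), Pdgfra (difference of log2 changes -0.54), Olig2 (0.39), Enpp6 (-0.99), Mog (-0.49), Mobp (-0.60), Cldn11 (-0.41), Tmem88b (-0.62) and Adamts4 (-0.59). Their limma adjusted p ran from 0.115 to 0.216. The effect at 15 months is therefore not shown to differ from that at 5 months for any member in this fit. Without mutant replicate 1 of 5 months, 6 members passed (Pdgfra, Olig2, Enpp6, Tspan2, Lpar1 and Adamts4). In that fit 8.07% of all genes had a lower effect at 15 months and 5.69% a higher one. With the correction 0 of 34 passed (0.436% of all genes had a lower effect and 0.245% a higher one).

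Other genes of the lineage were read from lists written by symbol, also with earlier results of these data known. Of all genes tested at 15 months, 4.03% were lower and 1.99% higher, and after correction 0.0979% and 0.0718%. Of 22 further genes of mature oligodendrocytes, 8 were lower and 0 higher at 15 months, with a median of -0.37. Cryab, a small heat shock protein, had a change of -0.62 (limma adjusted p = 0.0268). Plekhh1 and Anln, a scaffold of the septin filaments in myelin, had changes of -1.01 and -0.61. After correction 3 of the 22 were lower, Cryab (-0.78) among them, and the median was -0.47. Of 10 further precursor genes 2 were lower, Tnr (-0.91) and Ptprz1 (-0.37), and the median went from -0.31 to -0.03 with the correction, when none passed and Ptprz1 was at -0.01. Of 8 genes of committed and newly formed oligodendrocytes 0 passed before or after correction, with 4 below 0 (median 0.03) and then 3 (median 0.11). The 2 members of differentiating cells had medians of -0.58 and -0.49. Of 16 genes of cholesterol synthesis, on which myelin membrane depends, 1 was lower (Sc5d, -0.60). At 5 months none of the genes of these 4 lists passed on the deposited values. After correction Tnr (0.46, limma adjusted p = 0.0319) and Itpr2 (0.41, 0.0455) were higher at that age and Enpp2 (-2.17, 0.0424) lower. Of all genes, 2.29% were then lower and 3.28% higher. The change of Tnr at 5 months was opposite in sign to that at 15 months. Enpp2 had 3167 to 27159 normalized counts across the 5-month wild types and 1651 to 3726 across the mutants. The choroid plexus sum also varied widely across those wild types (3243 to 165753). Its part in the change of Enpp2 was not tested.

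Markers of other cells were read beside the members at 15 months, where 4.03% of all genes tested were lower and 1.99% higher. The summed normalized count of 8 astrocyte genes was 138416 to 141104 in wild types and 130996 to 136559 in mutants, with 0 of 8 called. That of 8 neuronal genes was 188362 to 194740 in wild types and 197355 to 222562 in mutants, with Gad2 lower (log2 change -0.52) and Rbfox3 higher (0.29). Of 10 microglial genes 1 was lower (Cx3cr1, -0.31; sums of 17138 to 18559 in wild types, 16693 to 20023 in mutants), and of 9 endothelial and pericyte genes 1 was higher (Cldn5, 0.37; sums of 9855 to 10327 in wild types, 9993 to 16119 in mutants). Of 5 fibroblast, 7 choroid plexus, 4 ependymal and 1 tested Schwann cell genes none passed. Of the 3 Schwann cell genes 1 was above 0 in all libraries, and their sum was at most 93.7. Without mutant replicate 3, the library with high vessel and choroid plexus sums, 14 members were called lower, where 5.23% of all genes were lower. The part of vessel and choroid plexus cells in the members' values was not tested. The sum over all genes was higher in every mutant (31128309 to 32383546) than in every wild type (29747718 to 30279766), and its part in the marker sums was not tested. The neuronal sum was likewise higher and the astrocyte sum lower in every mutant than in every wild type, but the genes of each list were divided. Slc17a7 alone had 73263 to 78297 in wild types and 89330 to 113648 in mutants, while 5 of the 8 neuronal genes had a change below 0 (median -0.10). Slc1a2 alone had 57848 to 61430 in wild types and 45534 to 52719 in mutants, while 3 of the 8 astrocyte genes had a change above 0 (median of the list -0.11). The part of these cells in the lower myelin genes was not tested.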

How the data were processed

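Bulk RNA sequencing of hippocampus was analysed in 13 libraries, 1 per mouse, grouped by the genotype and age in the labels. The signal values deposited are normalized counts. The authors quantified reads with Salmon 0.11.1 against mm10, and DESeq2 then scaled the libraries of each age on their own; the annotation release is not given in the sources used here. Between 12.2% and 87.0% of low values per library were whole multiples of a step, under the 95% set for recovering reads, so no count test was run and no counting error or detection limit is given.

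For each age, limma 3.58.1 (R 4.3.3; lmFit, eBayes with trend, two-sided) tested mutants against wild types on log2(normalized count + 1). Genes whose mean fell under 10 were left out, with Benjamini-Hochberg adjustment over all genes tested and a threshold of 0.05. Fold changes on this scale understate changes of low genes. The difference between ages was fitted over all 13 libraries. For the correction, each library was adjusted by loess (span 0.3) for the GC content and length of the longest GENCODE vM21 transcript of a gene (24399 of 25025 genes matched by symbol, all 34 members among them). The fits and the correction were tested on simulated data with independent noise, planted changes larger than those of the members, and a GC bias. A length bias and changes of the members' size were not simulated.

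The members and gene lists were chosen with earlier results of these data known, so no test was run over the members as a set. All members are named, and of the lists at most 4 genes that passed, of which 1 is not reported here. The labels give separate samples, and mice with the same replicate number are different animals. Exons of 6 members overlap another protein-coding gene (Adamts4, Cnp, Ermn, Evi2a, Nkx6-2 and Sirt2), and how strand was handled is not given. Promoter windows come from RefSeq (GRCm38.p6). Tables were handled with Python 3.11.15 and pandas 2.3.3, and plots drawn with matplotlib 3.10.9. The settings varied were the pseudocount (0.1 or 10), the filter (none, or a mean of 100), trimmed mean or quantile scaling, robust hyperparameters, a joint fit of both ages, a block on replicate number, corrections for GC content, length or both, each mouse left out, and an adjusted p under 0.01. Leaving out a mouse together with the correction was added after seeing the data.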

Additional observations from a re-analysis of the deposited data

Results flagged for a closer look

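Among the 4 wild types of 5 months, replicate 1 was the lowest library by a wide gap at 8 of the 34 members. The gap to the next library, as a share of the whole range of the group, was 0.988 for Adamts4, 0.934 for Mobp, 0.924 for Evi2a, 0.897 for Mbp, 0.882 for Sirt2, 0.856 for Fa2h, 0.847 for Bcas1 and 0.837 for Ndrg1, each above Dixon's 95% critical value for 4 samples. Chance alone gives about 1.7 of 34 groups, and the members share their libraries and are not independent. The other groups have 3 mice and were not examined in this way. Replicate 1 had 568 normalized counts of Adamts4 where the other wild types had between 890.3 and 894. Its neuronal and astrocyte sums (170015 and 112258) lay within the ranges of the other wild types (168827 to 178562 and 104480 to 112606). So did its cholesterol synthesis, fibroblast and choroid plexus sums. Its microglial sum of 14820.2 was the lowest of the 4 (highest 16466). Its endothelial and pericyte sum (10558.2, highest 12749.8) and ependymal sum (972.6, highest 1777.1) were also the lowest. The same held for its sums of further mature genes, of committed and newly formed genes, and of Schwann cell genes. Its sum of further precursor genes was the highest (6270.6, lowest 5467.4).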

How the results depend on the processing

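At 15 months the 12 lower members remained, and 0 were higher, with pseudocounts of 0.1 and 10, without a filter, with a mean of at least 100, trimmed mean rescaling, quantile normalization and robust hyperparameters (12 to 14 lower). Of all genes 626 were lower and 309 higher, 537 and 407 after trimmed mean rescaling and 654 and 177 after quantile normalization. There was 1 lower member (Gjc3) among 111 lower genes in 1 fit of all 13 libraries, 3 among 15 after GC and length correction, 9 among 112 after GC correction, 8 among 57 after length correction, and 0 among 2 at an adjusted p under 0.01. Replicate numbers did not pair mice (correlation of deviations of same-numbered mice from -0.091 to 0.16). With the replicate block 15 members were lower at 15 months and 0 at 5 months, and with the block and both corrections 1 (Cldn11, among 4 lower genes). All genes called under the block were 5 lower and 4 higher at 5 months and 943 lower and 652 higher at 15 months. Without each replicate in turn the lower members ranged from 0 to 14 at 15 months, 0 to 11 with the correction, and 0 to 2 at 5 months, and 0 to 6 members passed, in either direction, for the difference between ages. The cause of these shifts was not tested.

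Median log2 changes at 15 months moved for precursor genes to -0.025 with both corrections, with or without the replicate block, and to 0.087 with length correction, for transcription factors to -0.36 with both, with or without the block, and -0.35 with GC correction, for other mature genes to -0.13 with both, with or without the block, and -0.16 with GC correction, and for differentiating genes to -0.29 with a mean of at least 100, when Enpp6 was not tested.

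The sign turned, always in genes that were not called in the analysis of the report, as follows. At 15 months both corrections, with or without the block, gave Olig2 -0.0114, Gsn -0.0572 and Sirt2 -0.0781, GC correction gave -0.0162, -0.061 and -0.0388, and for Sirt2 length correction gave -0.033 and quantile normalization -0.00568. At 5 months quantile normalization gave Pdgfra 0.0408, Olig1 -0.0711 and Bcas1 -0.0219, GC correction Pdgfra 0.0423 and Olig1 -0.00586, length correction Mobp 0.00287, both corrections Olig1 -0.0161 and Adamts4 -0.00913, and the replicate block Pdgfra 0.0437 and Mobp 0.0276. The block with both corrections gave Pdgfra 0.0151, Mog 0.038, Mobp 0.0497, Cnp 0.00187, Cldn11 0.0331, Tmem88b 0.0379 and Ndrg1 0.0209. Without each replicate in turn the range at 15 months was -0.19 to 0.0257 for Sox10, -0.31 to 0.0133 for Pllp, -0.055 to 0.26 for Gsn and -0.30 to 0.33 for Apod. At 5 months it was -0.14 to 0.14 for Pdgfra, -0.0396 to 0.0913 for Olig1, -0.20 to 0.0144 for Myrf, -0.0684 to 0.15 for Bcas1, -0.0694 to 0.37 for Enpp6, -0.24 to 0.0039 for Mbp, -0.26 to 0.0108 for Mag, -0.24 to 0.0448 for Mog, -0.19 to 0.0565 for Mobp, -0.25 to 0.0036 for Cnp, -0.23 to 0.0192 for Cldn11, -0.41 to 0.17 for Tspan2, -0.10 to 0.42 for Apod, -0.16 to 0.27 for Lpar1, -0.18 to 0.0322 for Tmem88b, -0.22 to 0.10 for Ndrg1 and -0.16 to 0.18 for Adamts4.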
